A study of Zea mays with 36 samples.

Results

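Of the 7688 probes on a maize cDNA array, 66 met a rule for a higher mean signal in roots after 30 min in nitrate but not after 24 h. They were chosen from the ratios themselves: the mean log2 ratio of nitrate over control had to be at least 0.4 at 30 min, at least 5 of 6 replicates had to be above 0 there, and the mean at 24 h had to be at most 0.2. The 30 min limit was reached by 166 probes, of which 142 had enough replicates above 0 and 66 (0.858% of all probes) also met the limit at 24 h. The other 76 had a 24 h mean above 0.2 and are used below as the comparison. Because both ratios chose the members, their sizes and counts at 30 min and at 24 h are descriptions and carry no test.

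In roots, nitrate is a signal as well as a nutrient. Its arrival switches on genes for its own transport, for its reduction by nitrate and nitrite reductase and for the supply of reductant, and this primary nitrate response starts within minutes because it needs no newly made protein. Transcripts that respond early can return to their former level while nitrate is still present, since products of assimilation such as glutamine feed back on uptake and reduction, and others stay high for as long as nitrate is supplied.

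The plants were seedlings of the inbred maize line B73, grown in 5 mM calcium sulfate. Nitrate roots were moved to 5 mM calcium nitrate and control roots to fresh 5 mM calcium sulfate, for 30 min on day 11 or for 24 h from day 10. There were 6 biological replicates per time, and the 2 times used different plants. The nitrate and the control sample of a replicate were labelled with different dyes and hybridised together on 1 array, with nitrate on Cy5 in 3 replicates and on Cy3 in the other 3 at each time. Each array was scanned at High, Medium and Low power, giving 36 scans of 12 replicates. Nitrate roots also lost the sulfate that control roots kept, and the effects of nitrate and of lost sulfate cannot be told apart. All ratios are nitrate over control on a log2 scale, taken from the deposited normalized values. With 6 arrays at a time, array number is 1 limit on how precise a ratio is. The samples are bulk root tissue, so more transcript per cell and more cells of a type cannot be told apart.

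One array stood out from the rest. In 24 h replicate 3, 30.4% of spots were saturated in the High scan and 21.9% in the Medium scan, against at most 9.24% and 1.67% in the other replicates. Its median net signal in the Medium scan, the foreground minus the local background, was 20493 units in nitrate roots and 9846 units in control roots, while the other Medium scans had medians of 1487 to 3503 units in either channel. Without its High and Medium scans 66 probes met the rule, 64 of which are members described here.

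The files name the members by the accessions of cDNA clones. None of these could be given a gene name: 0 of the 66 matched the gene table of the maize reference used here, against 1 of all 7688 probes. The 31 symbols of nitrate transport and assimilation genes and the 11 symbols of root and leaf marker genes that were looked up also matched 0 probes, so neither the pathway of the members nor the tissue label was checked from gene names. Of the 66 clones, 39 carried accessions starting with DV (59.1%, against 64.9% of all probes), 18 started with BM (27.3%, against 16.9%), 7 with BG (10.6%, against 13.9%), and AW and DY gave 1 each. BG841152 was spotted at 2 places on the array and each other member at 1.

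The member with the highest mean at 30 min was DV492356. Its log2 ratios ran from 1.38 through a median of 1.59 to 2.73 at 30 min, and from -0.54 through -0.16 to 0.50 at 24 h. The mean was 1.80 ± 0.54 (SD, n = 6) at 30 min, a 3.49-fold higher level in nitrate, and -0.074 ± 0.40 (n = 6) at 24 h. Every 30 min replicate lay above every 24 h replicate. In the Medium scans its background-subtracted signal had a median of 12162 units in nitrate roots and 3767 units in control roots at 30 min. At 24 h the medians were 1163 units in nitrate roots and 1769 units in control roots, so the spot itself was dimmer on the later arrays in both channels.

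BM350754 followed, with log2 ratios from 0.96 through 1.75 to 2.38 at 30 min and from -0.71 through 0.058 to 0.87 at 24 h. Its mean was 1.71 ± 0.47 at 30 min (3.26-fold) and 0.073 ± 0.70 at 24 h (SD, n = 6 each). The groups of replicates did not overlap, and the 24 h values split by dye, with means of 0.70 for nitrate on Cy5 and -0.55 for nitrate on Cy3. Median net signals in the Medium scans were 1759 units in nitrate roots and 676 units in control roots at 30 min, and 353 and 358 units at 24 h.

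The next probes had means just above a 2-fold difference and all 6 replicates above 0. DV492350 ran from 0.56 through 1.03 to 1.93 at 30 min and from -0.30 through 0.19 to 0.82 at 24 h. DV492724 ran from 0.57 through 1.06 to 1.67 at 30 min and from -0.43 through -0.038 to 0.41 at 24 h. BM074654 was the most even of the members above 2-fold, with 30 min values from 0.73 through 1.06 to 1.33 and 24 h values from -0.97 through -0.49 to 0.020. DV492260 was less even, with values from 0.23 through 1.02 to 1.81 at 30 min and from -0.35 through 0.031 to 0.42 at 24 h, and its lowest early value lay below its highest late one. The mean at 30 min was 1.095 ± 0.46 for DV492350, 1.08 ± 0.36 for DV492724, 1.05 ± 0.22 for BM074654 and 1.01 ± 0.52 for DV492260 (SD, n = 6 each). At 24 h BM074654 averaged -0.47 ± 0.45, with 5 of 6 replicates below 0, and the other 3 had means from -0.034 to 0.18.

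Just under 2-fold came BM074811, at 0.98 ± 0.37 (30 min) and -0.16 ± 0.34 (24 h), and BG874037, at 0.94 ± 0.52 and 0.12 ± 0.73 (SD, n = 6 each). BM074811 ran from 0.44 through 1.09 to 1.42 at 30 min and from -0.68 through -0.076 to 0.14 at 24 h, with no overlap. BG874037 ran from 0.30 through 1.05 to 1.69 at 30 min and from -0.71 through 0.043 to 1.06 at 24 h, and its groups overlapped. BM074811 and BM074654 are different clones on neighbouring spot numbers, 10203 and 10204, and were 1 of 4 such pairs of members.

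The remaining 2 of the 10 highest means belonged to BM078723 and BM341624, and each was set by 1 replicate. BM078723 had log2 ratios of -0.018 to 0.51 in 5 replicates at 30 min and 5.80 in replicate 6, which gave a mean of 1.15 ± 2.29 (SD, n = 6). Without replicate 6 its mean was 0.22, below the limit of the rule. The spot gave almost no signal in that replicate. In the Medium scan it had 42.6 units in nitrate roots and 3.76 units in control roots, against medians over the 6 replicates of 2504 and 2180 units, and in the High scan the control channel was 106 units below its local background. BM341624 had -0.11 to 0.51 in 5 replicates and 5.36 in replicate 6, with a mean of 1.05 ± 2.12 and of 0.19 without that replicate. Its control channel lay 77.3 units below background in the High scan and 71.2 units below it in the Medium scan. Their spot numbers, 10600 and 10620, are 20 apart, and the probe at the next such step, BM379316 at 10640, gave 7.08 in the same replicate and -0.23 to 0.85 in the other 5. The probe at the step before, BG842080 at 10580, gave -0.093 in replicate 6, and BM078788 at 10599, next to BM078723, gave 2.56. Starting from the scanner intensities, with a background correction that keeps values positive, the 30 min means were 0.26 for BM078723 and 0.27 for BM341624.

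**Figure D1:**
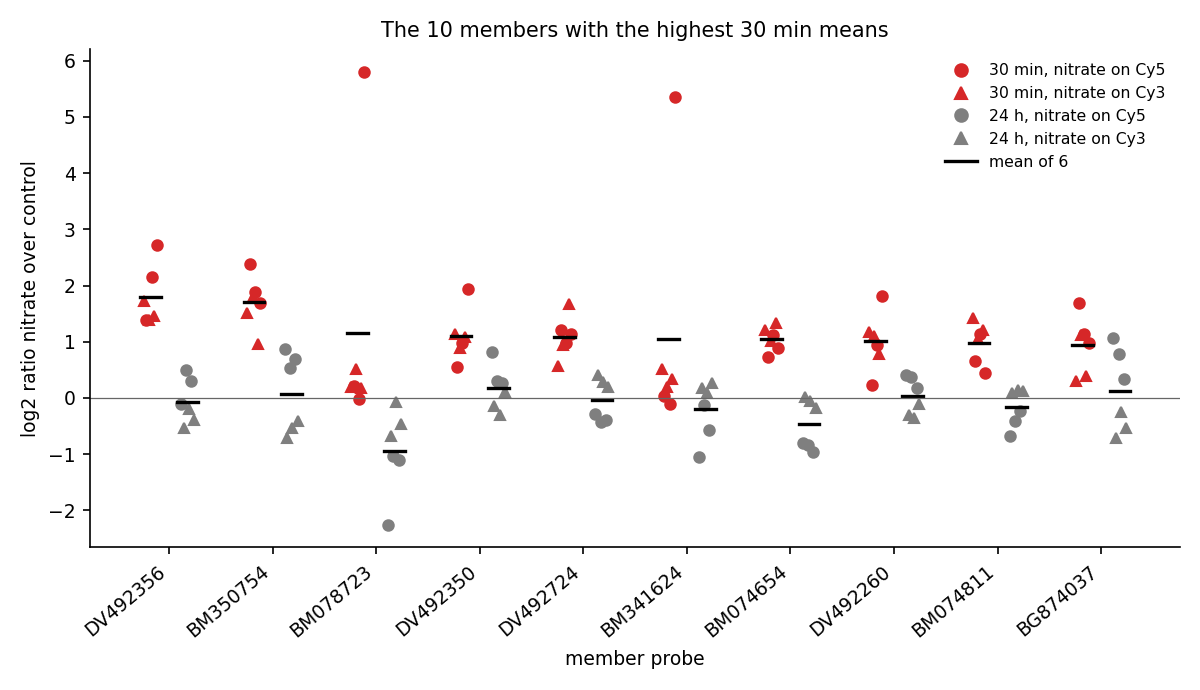
Log2 ratios of nitrate over control (y axis) of the 10 members with the highest 30 min means (x axis), with 1 point per replicate, red for 30 min and grey for 24 h, circles for nitrate on Cy5, triangles for nitrate on Cy3 and a black bar for the mean of 6. The points of DV492356 at 30 min lie between 1.38 and 2.73, while BM078723 and BM341624 have single points at 5.80 and 5.36 above 5 points near 0.

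Over the 66 members, the mean at 30 min ran from 0.40 to 1.80 with a median of 0.54. It was 1 or more, a 2-fold difference, in 8 members, 2 of which were BM078723 and BM341624, and under 0.5 in 26. The comparison probes had a higher median of 0.64, and 20 of 76 reached 1. All 6 replicates were above 0 in 42 members, which 2.03% of all probes also showed. limma's fit over all probes called 27 members higher at 30 min at an adjusted p under 0.05, against a background of 0.989% of all probes. It called 49 of the 76 comparison probes. Without replicate 3, 4 or 5 of the 30 min series the count of members called was 14 each time, and without replicate 6 it was 17. Of all probes, 0.598% to 0.611% were called in these runs.

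The size of the early difference varied with the replicate. The median over members was 0.49, 0.47, 0.63, 0.56, 0.79 and 0.42 in replicates 1 to 6, and the medians of all probes in the same arrays lay between -0.018 and 0.019. Replicate 5 held the highest value of 28 members and replicate 4 that of 2. Replicate 3 had all 66 members above 0 and replicate 6 had 56, the fewest. The median SD between replicates was 0.37 for members, against 0.36 for the comparison probes and 0.29 for all probes. In 31 members the mean of the other 5 replicates fell under 0.4 once the highest was left out, and in 10 members the highest replicate exceeded the sum of the other 5. The same counts were 16 and 2 among the 76 comparison probes.

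At 24 h the members' means ran from -0.94 to 0.20 with a median of -0.13, while the median of all probes was -0.0036. The rule set only the upper end of this range. The mean lay within 0.2 of 0 in 39 members and below -0.2 in the other 27, of which 12 were at or below -0.4. The fit called 10 members lower in nitrate at 24 h (background 6.17%). The limit on the 24 h mean acted against calls in the other direction, and 0 members were called higher. For calls either way the share was 15.2% of members and 13.0% of all probes. In 9 members all 6 replicates were below 0 (background 3.68%), and in 20 members every 30 min replicate lay above every 24 h replicate (background 0.78%). The ratio at 24 h minus that at 30 min was called lower in 28 members (background 1.68%). Without 24 h replicate 1, 2 or 5 the count called lower at 24 h was 6, 5 or 4. These were 9.09%, 7.58% and 6.06% of members. Of all probes, 9.37%, 9.59% and 8.74% were then called either way.

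**Figure D2:**
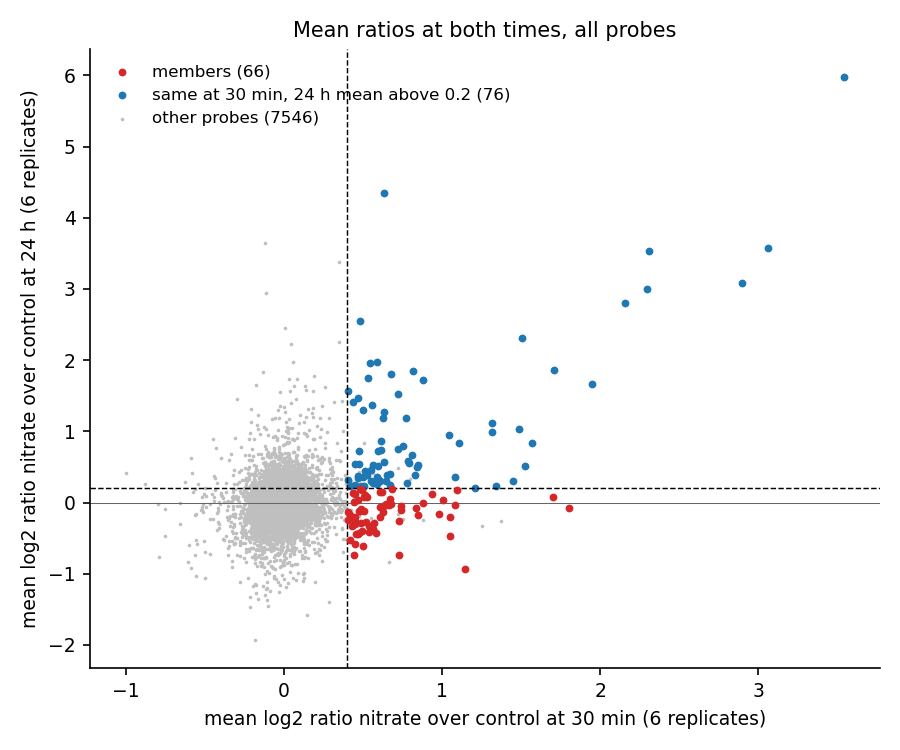
Mean log2 ratio of nitrate over control at 30 min (x axis) against the mean at 24 h (y axis), each over 6 replicates, for the 66 members in red, the 76 comparison probes in blue and all other probes in grey, with dashed lines at the limits 0.4 and 0.2. The members lie between 0.40 and 1.80 on the x axis and between -0.94 and 0.20 on the y axis, most of them near the left limit.

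Of the 5 members with the lowest 24 h means, BM078723, described above, had 24 h values from -2.26 through -0.85 to -0.081, and a mean of -0.94 ± 0.75 (SD, n = 6). AW053042 was the most even of the 5. Its values ran from 0.43 through 0.71 to 1.11 at 30 min and from -1.01 through -0.82 to -0.45 at 24 h, with means of 0.73 ± 0.26 (1.65-fold) and -0.74 ± 0.23 (0.600-fold; SD, n = 6 each). All 6 replicates were above 0 at 30 min and all 6 below 0 at 24 h, in both dye orientations. Its median net signal in the Medium scans was 983 units in nitrate roots and 595 units in control roots at 30 min, and 318 units in nitrate roots and 712 units in control roots at 24 h.

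BM267267 had values from -0.072 through 0.57 to 0.87 at 30 min and from -1.49 through -0.74 to -0.27 at 24 h. DV491480 had values from -0.087 through 0.54 to 0.75 at 30 min and from -1.30 through -0.55 to -0.14 at 24 h. In both, all 6 replicates at 24 h were below 0 and replicate 6 was the one negative value at 30 min. DV489915 ran from 0.11 through 0.42 to 1.12 at 30 min and from -1.44 through -0.60 to 0.12 at 24 h, where replicates 4 and 6 were above 0. It was a bright spot, saturated in 6 High scans and in 0 Low scans. BG841152 was bright as well, saturated in 2 High scans at spot 3368 and in 10 High and 2 Medium scans at spot 8278. On average it gave the same signs at both places, with 0.55 and 0.40 at 30 min and -0.47 and -0.37 at 24 h. In the Medium scans at 24 h the 2 spots differed in sign in replicates 3, 4 and 6. Spot 3368 gave 0.17, -0.44 and -0.97 there, and spot 8278 gave -0.11, 0.067 and 0.46. The mean of the 2 spots over all scans ran from 0.23 through 0.39 to 0.79 at 30 min and from -0.75 through -0.41 to -0.18 at 24 h.

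**Figure D3:**
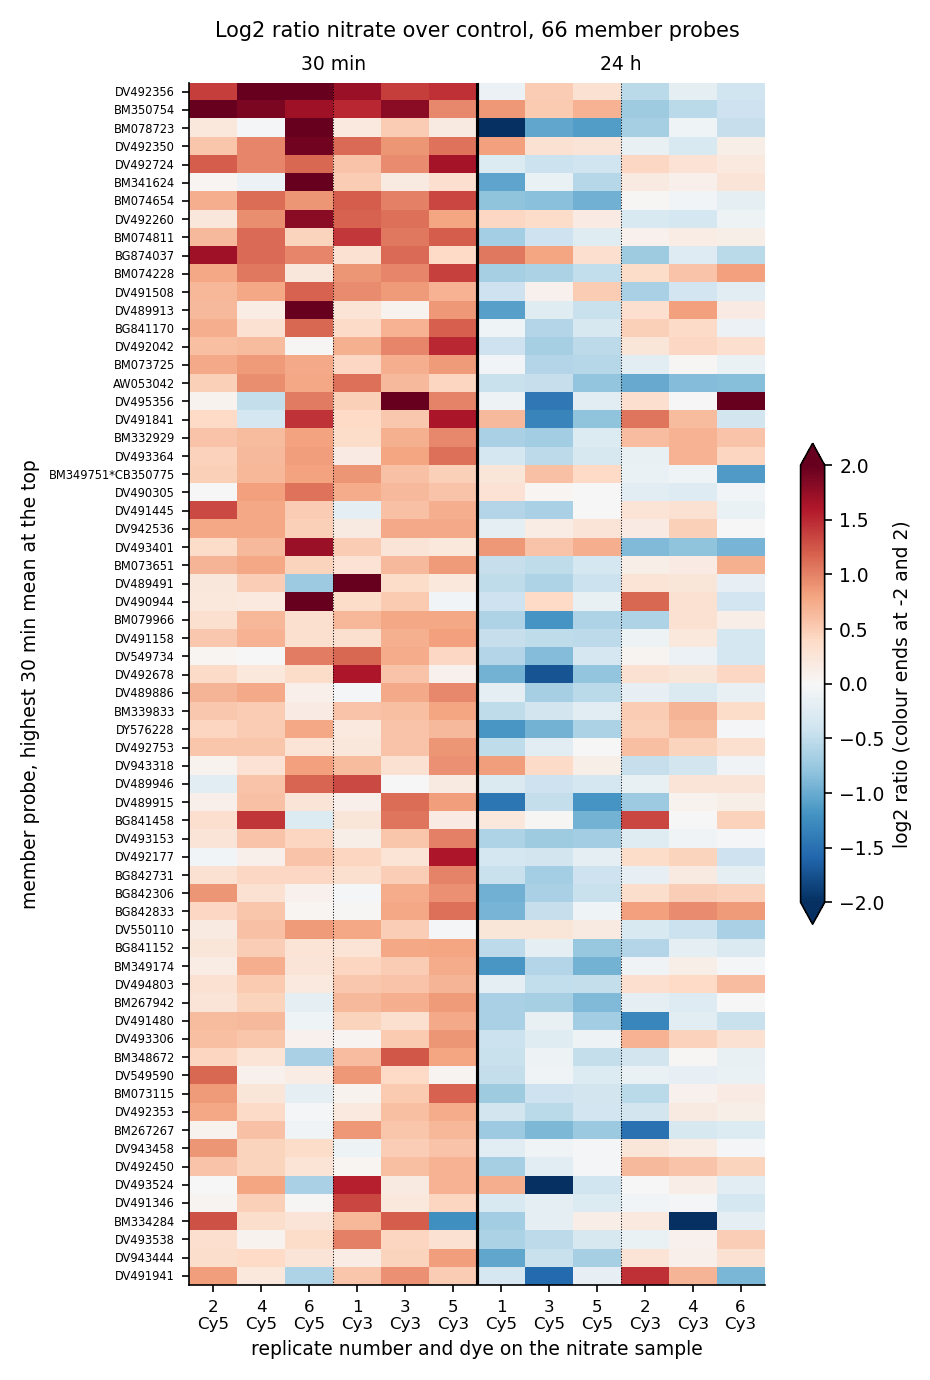
Log2 ratio of nitrate over control in colour (red above 0, blue below 0, colour ends at -2 and 2) for the 66 members (rows, highest 30 min mean at the top) in the 12 replicates (columns, 30 min left of 24 h, and within each time nitrate on Cy5 left of nitrate on Cy3). The 30 min columns are nearly all red, with 56 to 66 members above 0, and at 24 h the columns with nitrate on Cy5 are bluer than those with nitrate on Cy3.

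The limits cut through a continuous range of values. Just inside the 30 min limit were DV491941, with a mean of 0.40 ± 0.56, and DV943444, at 0.41 ± 0.24. Just outside it were DV489503, at 0.40 ± 0.37, and DV549998, at 0.39 ± 0.25 (SD, n = 6 each). DV491941 was close to background, with a median net signal of 96.1 units in nitrate roots and 85.4 units in control roots in the 30 min Medium scans. At the 24 h limit, DV495356 and BG842833 were just inside, at 0.20 ± 1.30 and 0.19 ± 0.80, and DV942423 and AI861314 just outside, at 0.20 ± 0.43 and 0.23 ± 0.28. DV942423 was higher at 30 min than all but 2 members, at 1.21 ± 0.36, and its early and late replicates did not overlap.

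The dye on the nitrate sample moved with the 24 h values. At 30 min all 66 members had a mean above 0 in both orientations, with medians of 0.50 for nitrate on Cy5 and 0.63 for nitrate on Cy3. The rule nearly fixed these signs, since it allowed at most 1 of the 6 replicates at or below 0, so they say little about the dye. At 24 h the medians were -0.44 with nitrate on Cy5 and -0.0076 with nitrate on Cy3. Of the 66 members, 22 were below 0 in both orientations and 1 was above 0 in both. Opposite signs were seen in the rest, with 32 below 0 on Cy5 and above 0 on Cy3, and 11 the reverse. Among all 7688 probes the same counts were 986, 1122, 2784 and 2796, so opposite signs were not particular to members. The dye effect, Cy5 over Cy3 across all 12 replicates, is balanced against the mean ratios that chose the members and was tested in the same fit. The rule on signs at 30 min is not balanced, since it leaves out probes that a dye effect takes below 0 in 1 orientation. Counts of members called for the dye effect, here and below, are therefore descriptions. The dye effect passed in 21 members (background 42.8%), with Cy3 higher in 17 (25.8%, background 22.5%) and Cy5 higher in 4 (background 20.3%). Cy3 was called higher in 26.3% of the comparison probes. The median dye effect of all probes ran from 0.13 to 0.21 in the first 4 of 8 sections of spot numbers and from -0.29 to -0.13 in the last 4, where 51 of 66 members lay, as described below. With each replicate centred by section the count was 6 members (9.09%, against 23.3% of all probes). Its median size was 0.21 in members and 0.21 in all probes, and its median sign differed, at -0.17 in members and -0.0072 in all probes.

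The largest dye effects toward Cy5 among the members called were those of DV493401, at 0.54 ± 0.11 (SE; limma, adjusted p = 0.00251), BG874037, at 0.47 ± 0.10 (adjusted p = 0.00275), and BM350754, at 0.45 ± 0.095 (adjusted p = 0.00241). DV493401 averaged 0.72 with nitrate on Cy5 and -0.87 with nitrate on Cy3 at 24 h, so its mean of -0.076 there was the middle of opposite values. The largest effects toward Cy3 were those of DV495356, at -0.62 ± 0.21 (adjusted p = 0.0259), DV492678, at -0.48 ± 0.13 (adjusted p = 0.0101), and BG842833, at -0.42 ± 0.12 (adjusted p = 0.012). BG842833 averaged -0.49 with nitrate on Cy5 and 0.87 with nitrate on Cy3 at 24 h. With the 30 min arrays fitted alone limma called 0 members and 0 of all probes for a dye effect, with 5 members (7.58%) and 13.2% of all probes at an unadjusted p under 0.05. With the 24 h arrays alone it called 41 members (62.1%), against 64.7% of all probes.

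The position of a spot also moved with these values. Spot numbers run up to 12160, and the probes were divided by number into 8 sections of 1520 numbers each. Members made up 0.406%, 0.524%, 0.306% and 0.309% of the probes in sections 1 to 4 and 0.832%, 1.05%, 1.97% and 1.55% of those in sections 5 to 8. Thus 51 of 66 members (77.3%) lay in sections 5 to 8, against 49.4% of all probes and 48.7% of the comparison probes. Within single replicates the median ratio of all probes drifted along the sections. In 24 h replicate 1 it was 0.57 in section 3 and -0.85 in section 8, and in 30 min replicate 5 it was -0.30 in section 3 and 0.38 in section 8. At 24 h the direction of the drift turned with the dye, downward in all 3 replicates with nitrate on Cy5 and upward in all 3 with nitrate on Cy3. Averaged over 6 replicates it was small at 30 min, between -0.038 and 0.022, and larger at 24 h, between 0.053 in section 2 and -0.13 in section 8. How the spot numbers lie on the slide is not given in the sources used here.

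**Figure D4:**
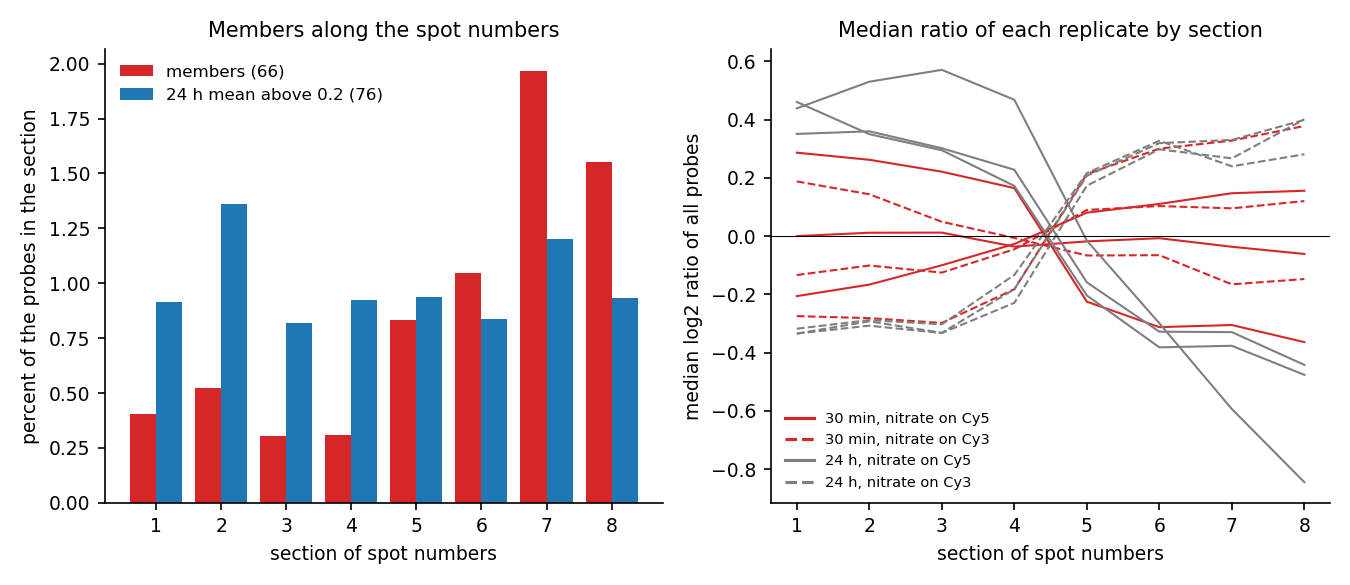
Left, the percent of the probes in each of 8 sections of spot numbers (x axis) that are members (red) or comparison probes (blue). Right, the median log2 ratio of nitrate over control of all probes in each section (y axis), with 1 line per replicate, red for 30 min, grey for 24 h, solid for nitrate on Cy5 and dashed for nitrate on Cy3. Members are most frequent in sections 7 and 8, at 1.97% and 1.55%, where the grey lines spread from -0.85 to 0.40.

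Each replicate was therefore centred on the median of each section, a step chosen after the drift had been seen. The rule was then met by 60 probes, of which 53 were members and 7 were not. Of the 60, 38 (63.3%) lay in sections 5 to 8. The median SD of the members was 0.28 in place of 0.44 at 24 h, and 0.32 in place of 0.37 at 30 min. The fit then called 42 members higher at 30 min (background 1.69%). At 24 h it called 12 lower (background 15.2%) and 4 higher (background 14.7%). The members called higher, DV492753, BG842833, DV493306 and DV492450, all lay in section 8 and had section-centred 24 h means of 0.22 to 0.30, above the limit of the rule. The strongest members changed little: DV492356 had section-centred means of 1.83 at 30 min and -0.13 at 24 h, BM350754 of 1.75 and 0.040, and AW053042 of 0.75 and -0.80.

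Many members were dim. On the mean of both channels, 33 of 66 were among the dimmest 25.0% of all probes and 7 among the brightest 25.0%. The comparison probes had 16 of 76 (21.1%) in the dimmest group. In 18 members (27.3%), 1 or more High scans had a channel at or below its local background, against 484 of all 7688 probes and 4 of the 76 comparison probes. For 0 members was a channel at background in every High scan of a time. In the Medium scans, DV492678 had median net signals of 211 units in nitrate roots and 153 units in control roots at 30 min. DV495356 had 52.2 units in nitrate roots and 83.9 units in control roots, while its normalized ratios over all scans averaged 0.69 ± 0.87 (SD, n = 6). In the Medium scans alone its normalized 30 min ratios were 0.96, -0.14, -0.42, -0.79, 0.72 and -0.79 in replicates 1 to 6. The part of dimness in the ratios was not tested beyond the values given here.

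The scan power and the starting values were changed in turn. The 30 min mean was above 0 at all 3 scan powers in 64 members and at least 0.4 at all 3 in 41, against 66 of the 76 comparison probes for the latter count. Starting from the scanner intensities, with normexp background correction and loess normalization, all 66 members kept a 30 min mean above 0, the lowest at 0.21, but 19 fell below 0.4 there and 47 of the 66 met the whole rule. Of the 19 members that did not meet it, 18 were in the dimmest 25.0% of probes. The rule was met from all 4 sources of the ratios (deposited, section-centred, and scanner intensities with loess over the array or within blocks of 380 spot numbers) by 36 members. These included 8 of the 10 highest, all but BM078723 and BM341624. Their median was 0.62 at 30 min and -0.13 at 24 h, 30 of them had all 6 early replicates above 0, 22 lay in sections 5 to 8, and 11 were in the dimmest 25.0%.

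The brightness of the spots gave a measure that does not enter as a ratio. The mean of both channels, normalized between the 12 replicates, was compared between the 24 h and the 30 min arrays. The mean of channels moves by 0.5 of any change in the ratio that comes from the nitrate channel alone, and array set and time cannot be told apart. The rule thus favours members with a lower brightness at 24 h, so their counts and adjusted p-values here are descriptions. Brightness was lower on the 24 h arrays in 47 members (71.2%, against 47.0% of all probes and 64.5% of the comparison probes). Its median was -0.24 in members, against 0.018 for all probes and -0.16 for the comparison probes. limma called 9 members, each of them lower on the 24 h arrays (13.6%; background 0.663%). The share called lower was about the same among the comparison probes, at 10 of 76 (13.2%). The lowest were DV492356, at -2.19 ± 0.28 (SE, adjusted p = 0.00148), BM350754, at -1.32 ± 0.19 (adjusted p = 0.0046), and BM074654, at -1.17 ± 0.16 (adjusted p = 0.00232).

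Split by channel, the level at 24 h minus that at 30 min had a median of -0.58 in the nitrate channel and 0.10 in the control channel over the members. It was below 0 in the nitrate channel of 60 members and above 0 in the control channel of 42. These are descriptions, since the same channels make up the ratios that chose the members. In the comparison probes the medians were -0.20 in the nitrate channel and -0.18 in the control channel. The members called for brightness were lower in both channels: DV492356 was lower by 3.13 in the nitrate channel and by 1.25 in the control channel, BM350754 by 2.14 and 0.51, and BM074654 by 1.93 and 0.42. DV489915 and BG841152 differed from them, with control channels higher at 24 h, by 1.04 and 0.63, and nitrate channels at -0.066 and -0.27.

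**Figure D5:**
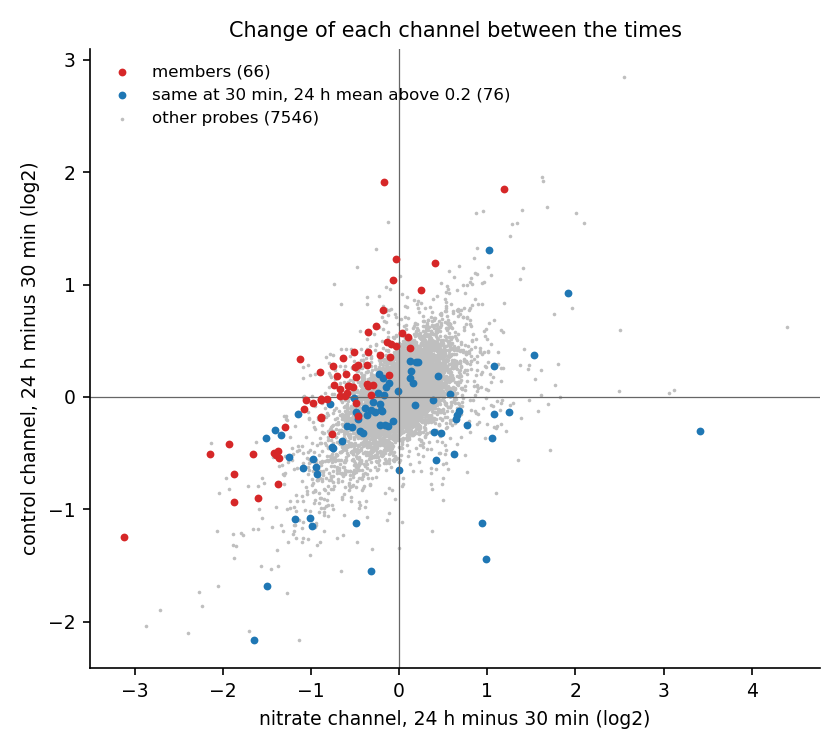
Level of the nitrate channel at 24 h minus that at 30 min (x axis, log2) against the same difference in the control channel (y axis, log2), for the 66 members in red, the 76 comparison probes in blue and all other probes in grey. Members lie mostly to the left of 0, with medians of -0.58 in the nitrate channel and 0.10 in the control channel, and DV492356 is the point farthest to the left, at -3.13 and -1.25.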

How the data were processed

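Root RNA of 12 replicates (a nitrate and a control sample on 1 array each) was read in 36 scans. Per the file headers, the deposited files hold scanner intensity (foreground and local background, linear, up to 65535) and normalized values for either dye, which behave as natural log values deposited by the authors. The deposited final value equals their Cy5 minus Cy3 difference (largest gap 8.9e-16), also in the series table (5e-10). The scanner and the normalization method are not stated in what was used here. Columns of other samples numbered 0.

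Normalized Cy5 minus Cy3 was divided by the natural log of 2 and turned to nitrate over control by the labelled dyes. The 3 scans of a replicate were averaged, then the spots of a probe (7888 spots, 7688 probes, 200 with more than 1 spot). limma 3.58.1 in R 4.3.3 fitted the 30 min ratio, the 24 h ratio and a dye effect over all 12 replicates (9 residual degrees of freedom, median SE of a ratio 0.125), with Benjamini-Hochberg adjustment over all probes and a threshold of 0.05. Brightness, the mean of both channels after quantile normalization, was fitted by time. The fits were tested on simulated data. Net signals are foreground mean minus local background median.

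Members, lists and comparisons were chosen with earlier results of these data known. Named were the 10 highest members at 30 min, the 5 lowest at 24 h, the 2 probes on each side of each limit, up to 3 in each direction for dye and brightness among those called, and members with several spots. BM379316, BG842080, BM078788, the 4 probes called higher after section centring and the members on neighbouring spots were named after their values were seen. Alternatives were scan power, scanner intensities (normexp, offset 50, then loess), each replicate left out, dim probes left out, weights, blocks, and centring by section or block of spot numbers, added later.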

Additional observations from a re-analysis of the deposited data

Results flagged for a closer look

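Of 50 sets of 6 replicate values of named probes that were searched, 4 had a value far from the other 5, and 3 of these values were in 30 min replicate 6. Chance flags about 1 in 20 sets, but these probes were named partly by the same values, so the count is a description and is not set against that rate. BM078723 stood at 5.80 there, with the other 5 replicates between -0.018 and 0.51. BM341624 stood at 5.36, with the others between -0.11 and 0.51. DV493401 stood at 1.73, with the others between 0.21 and 0.65. DV492678 stood at 1.62 in 30 min replicate 1, with the others between 0.080 and 0.57. BM078723 and BM341624 had a control channel below its local background in the High scan of that replicate. DV493401 was a bright spot there, with net signals of 15733 units in nitrate roots and 3787 units in control roots in the High scan, and ratios of 1.57 to 1.86 over its 3 scans.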

How the results depend on the processing

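The count of 66 members kept within 1.5 times under each alternative run except the removal of dim probes. That removal left 33, since the other 33 were in the dimmest 25.0% and were taken out by definition. Membership changed more than the count. Members were 46 of the 70 probes meeting the rule in High scans alone, 49 of 61 in Medium scans and 53 of 79 in Low scans. Leaving out 1 replicate gave 63 to 92 probes, of which 51 to 64 were members. The counts called are less stable. At 30 min (27) they were 14 to 37 with 1 replicate left out, and 16 in High and 15 in Medium scans alone. They were 12 with 30 min replicates 1 to 4 only and 14 at an adjusted p under 0.01. Without dim probes they were 15 of the 33 members left. They were 13 with no dye effect in the model, 42 section-centred, 43 block-centred and 45 with loess within blocks. Aside from the run without dim probes, 0.429% to 2.19% of all probes were called at 30 min in these runs. At 24 h (10, or 15.2% of members against 13.0% of all probes) they were 4 to 11 with 1 replicate left out. In those runs 6.06% to 16.7% of members were called, against 8.74% to 16.5% of all probes. The counts were 6 in Medium scans (9.09%, against 10.4% of all probes) and 6 of the 33 members left without dim probes. They were 4 at 0.01 (6.06%, against 6.3%) and 3 with no dye effect (4.55%, against 6.32%). Under the 3 position settings they were 16, 18 and 16, of which 4, 5 and 4 were higher. These were 24.2%, 27.3% and 24.2% of members, against 30.0%, 33.6% and 33.9% of all probes. For the difference (28, or 42.4% against 3.71% of all probes) they were 23 to 37 with 1 replicate left out and 15 without dim probes. The counts were 17 with no dye effect (25.8%, against 1.48% of all probes). By position they were 45, 44 and 47 (68.2%, 66.7% and 71.2%, against 12.9%, 15.0% and 15.6% of all probes). For the dye effect (21) they were 14 to 35 with 1 replicate left out and 12 without dim probes. The 35 came without 30 min replicate 1 (53.0%, against 57.4% of all probes). They were 6 at 0.01 (9.09%, against 19.7%) and 43 with array weights (65.2%, against 69.8% of all probes). With 30 min and 24 h fitted alone they were 0 and 41 (0 and 64.7% of all probes). By position they were 6, 3 and 5 (9.09%, 4.55% and 7.58%, against 23.3%, 10.7% and 12.6% of all probes). For brightness (9) they were 6 to 12 with 1 replicate left out. They were 4 at 0.01 (6.06%, against 0.429% of all probes) and 24 with array weights (36.4%, against 17.1%). Fewer probes or replicates enter some of these fits, and otherwise the cause was not tested.

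Whether replicate numbers pair the 2 times was not settled. Deviations of same-numbered replicates correlated at 0.131, 0.0662, -0.461, -0.233, -0.601 and -0.677, and not every replicate correlated best with its own number. Same-numbered replicates had nitrate on opposite dyes at the 2 times, and the dye effect was not removed from the deviations. These correlations therefore cannot decide about pairing. With the number as a replicate block the counts were 30 at 30 min, 11 at 24 h and 35 for the difference. They were 29 for the dye effect and 4 for brightness. In this order they were 45.5%, 16.7%, 53.0%, 43.9% and 6.06% of members. Of all probes, 1.13%, 18.8%, 4.96%, 52.8% and 0.403% were called.

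The precision of a member's ratio is limited by 6 arrays a time and, in the dimmest members, by signals close to background (DV491941, 96.1 units in nitrate roots and 85.4 units in control roots). The clones were not named by gene here.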
